A study of Mus musculus with 11 samples.

Results

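The genes described here are 37 mouse genes that type I interferon is known to switch on, listed by symbol and measured by RNA sequencing of whole lung. They were kept where the mean over the 11 libraries was at least 1 deposited normalised unit, and all 37 of 37 passed, out of 23255 genes in the table and 16225 with such a mean. The values that passed nearest the limit belonged to Mx2, Oasl1 and Mx1 (means of 2.73, 2.74 and 2.80), and no listed gene fell under it. The lungs came from C57BL/6 mice in 3 groups: 3 libraries from untreated mice (control), 3 from mice given naphthalene, and 5 from mice given naphthalene and then osimertinib. Osimertinib is an inhibitor of the EGF receptor used against lung cancer, and naphthalene is a compound that injures the club cells of the airway. Neither the labels nor the series text used here gives a dose, time, age or sex, or says which library came from which animal, so the p-values measure the spread between these libraries. There was no group that received osimertinib without naphthalene. The title of the series names osimertinib-induced pneumonitis as its subject.

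Type I interferons are secreted proteins that bind the receptor pair IFNAR1 and IFNAR2. The kinases JAK1 and TYK2 then phosphorylate STAT2, which acts with IRF9 in a complex of transcription factors. The complex binds a DNA element called the interferon-stimulated response element (ISRE) in the promoters of its targets, among them its own components, the factor IRF7 that drives further interferon production, and proteins that detect, mark or destroy viral RNA. In lung, epithelial cells, macrophages, monocytes and plasmacytoid dendritic cells can all take part in this response. Per kilobase of annotated exon, control levels ran from 0.585 units in Oas3 to 42.1 in Ifi27l2a. The listed genes are 3 factors, 17 antiviral effectors, 5 genes of ubiquitin and ISG15 conjugation, 4 nucleic acid sensors, 3 genes of ADP-ribosylation and 5 others.

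Promoter sequence was not used to list these genes. RefSeq promoter windows (build GRCm38.p6, 250 bases before to 50 after a start site) were found for 27 of the 37 genes. The core of the ISRE, searched as GAAANNGAAA on both strands, lay in a window of 13 of those 27 genes (48.1%), against 3.99% of all 27025 genes in that promoter table and 3.44% of its 32851 windows. The 6 stretches that follow are shown because they hold a core before the start site. Of their genes, Isg15, Ifit1, Trim30a and Stat2 were also picked by the rule for named genes. Ifit3 and Ifit3b were added after their values were seen. That rule names 13 genes, of which 11 have a window and 5 a core in it. The fifth is Eif2ak2, whose core lies after the start site, and Oasl2, Irf7, Irf9, Herc6, Ifi44 and Cmpk2 have a window without these letters. Each is written 5′ to 3′ on the gene's own strand, ends before the start site, and has the ISRE core or its reverse complement in capitals.
Isg15 (chr4:156200855-156200916, minus strand): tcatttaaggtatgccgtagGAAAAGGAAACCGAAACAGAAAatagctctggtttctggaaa
Ifit1 (chr19:34640765-34640833, plus strand): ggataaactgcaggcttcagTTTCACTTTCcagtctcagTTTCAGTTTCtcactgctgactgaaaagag
Ifit3 (chr19:34583353-34583436, plus strand): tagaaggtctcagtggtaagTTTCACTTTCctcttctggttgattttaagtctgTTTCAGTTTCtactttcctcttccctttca
Ifit3b (chr19:34607749-34607832, plus strand): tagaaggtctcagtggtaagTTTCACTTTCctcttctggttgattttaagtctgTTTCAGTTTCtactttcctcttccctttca
Trim30a (chr7:104465200-104465249, minus strand): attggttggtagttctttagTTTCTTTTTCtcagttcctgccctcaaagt
Stat2 (chr10:128270256-128270305, plus strand): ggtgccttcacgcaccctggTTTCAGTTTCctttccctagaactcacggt
In Isg15 3 cores overlap in 1 run, and Ifit1, Ifit3 and Ifit3b each hold 2 cores. The printed Ifit3 and Ifit3b stretches were identical at 84 of 84 bases. Eif2ak2 also held a core, but after its start site. A match to these letters describes the sequence and is not a measured binding site.

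The libraries held 5045361 to 13009975 reads assigned to genes, recovered from the deposited values. One gene, unnamed in the annotation used (ENSMUSG00000119584), took 43.9% to 60.3% of those reads in all 3 naphthalene libraries and in osimertinib 2. It took at most 0.0337% in the other 7. Outside the 3 genes that took over 10% of some library, those 4 libraries held 1933563 to 2798758 reads and the other 7 held 7880577 to 10787221. One read was worth 0.0568 to 0.459 units. The lung markers Sftpc, Scgb1a1, Ager and Pecam1 were present in every library, with lowest values of 5940, 1737, 577 and 276. Osimertinib 3 also stood apart. The others of the 3 genes over 10% each took 16.7% of its reads, and at most 4.55% each in any other library. Osimertinib 3 was the highest of all libraries for 29 of the 37 genes, and for 30.6% of all genes. Its results are therefore given with and without it.

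Osimertinib lungs had higher mean levels of most of these genes than naphthalene lungs. On the log2(value + 1) scale 35 of 37 differences were above 0, with a median of 0.69, against a median of 0.06 over all 16225 genes, 60.5% of which were above 0. The largest belonged to Isg15, the ubiquitin-like modifier (1.79, 95% interval 1.04 to 2.54, limma adjusted p = 0.178), Oas2 (1.13, 95% interval 0.36 to 1.89, limma adjusted p = 0.297) and Rsad2, the antiviral enzyme viperin (1.09, 95% interval 0.37 to 1.81, limma adjusted p = 0.286). Oasl2, a relative of the 2′-5′ oligoadenylate synthetases, followed with 1.05 (95% interval 0.75 to 1.35, limma adjusted p = 0.105) and the narrowest interval of the 4. No listed gene passed an adjusted p of 0.05 in limma or in edgeR, where 0.0% of all genes did by either tool. DESeq2 called 2 of them, Oasl2 (adjusted p = 0.000375) and Isg15 (adjusted p = 0.0199), where it called 0.135% of all genes.

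Short of the adjusted threshold, 27 of the 37 genes had an unadjusted limma p under 0.05 and were higher, against 7.08% of all genes. All 5 osimertinib libraries lay above all 3 naphthalene libraries for 16 genes, against 3.82% of all genes. Among them are Mx2, Bst2, Xaf1, Parp14 and Trim25. Without osimertinib 3 the number of genes whose groups did not overlap was 16 again, against 6.45% of all genes, and the median difference was 0.54. Naphthalene 3 limited this count the most: without it 28 genes did not overlap, against 13.4% of all genes. Within the 4 libraries with the large unnamed gene, osimertinib 2 lay above all 3 naphthalene libraries for 31 of 37 genes, where 23.0% of all genes did so.

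Marker levels of several cell types differed beside these genes, and their part in the differences was not tested. In whole lung, more cells of a type and more RNA per cell cannot be told apart. The summed level of 13 markers of monocyte-derived macrophages was 433 to 504 in control, 449 to 517 in naphthalene and 560 to 809 in osimertinib libraries. All 13 were above 0 against naphthalene, 7 of them with an unadjusted limma p under 0.05, against 7.08% of all genes higher by that measure. For 12 alveolar macrophage markers the sums were 461 to 517, 449 to 754 and 613 to 1202, and for 9 classical monocyte markers 766 to 905, 885 to 964 and 940 to 1505. Osimertinib 3 was the highest library for all 3 of these sums, as it was for most of the listed genes. It was also the highest for the sum of 8 alveolar type 2 cell markers, at 27738, with naphthalene 3 next at 19206. Plasmacytoid dendritic cell markers, of cells that make much type I interferon, summed to 207 to 240, 208 to 226 and 168 to 218, lowest in osimertinib 3, with Klk1 and Cd300c at 0 in at least 1 library. B cell markers summed to 257 to 556, 301 to 649 and 107 to 251, and 11 of 12 were lower in osimertinib than in naphthalene lungs at an unadjusted limma p under 0.05, against 3.22% of all genes. T cell markers summed to 54.3 to 58.8, 43.6 to 52.8 and 28.9 to 48.7. Neutrophil markers stood out in naphthalene 3 (416) and osimertinib 3 (415) against 56.1 to 114 in the other 9 libraries, with Ly6g, Camp and Ngp at 0 in at least 1 library.

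**Figure D1:**
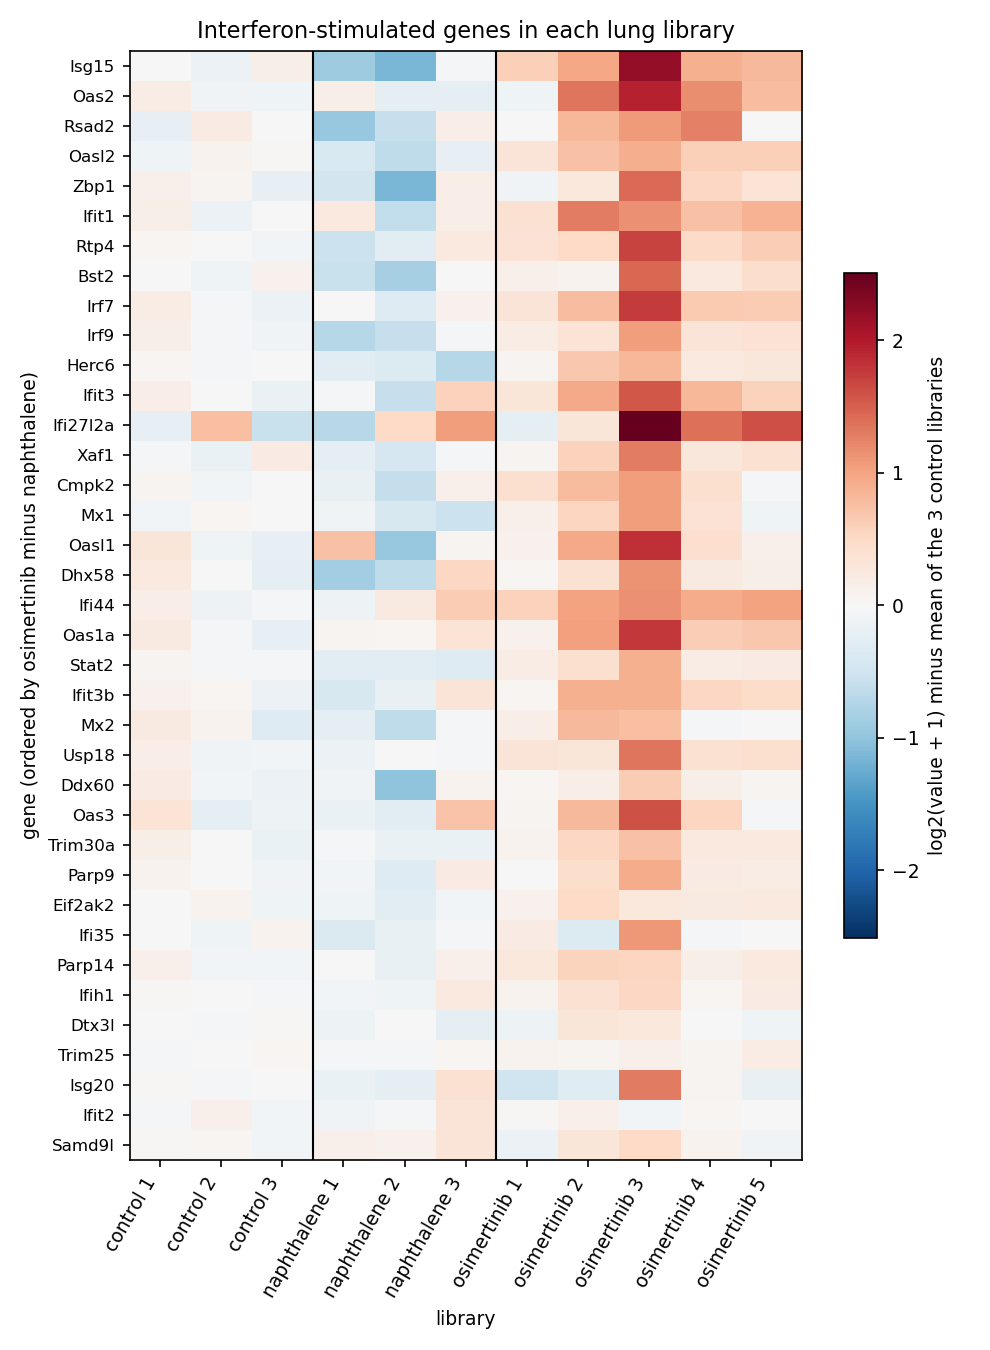
Heat map of log2(value + 1) minus the mean of the 3 control libraries, for the 37 genes (rows, ordered by their difference between osimertinib and naphthalene) in the 11 libraries (columns). Red is above and blue below the control mean, vertical lines part the groups, and the osimertinib 3 column is the deepest red for most rows.

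**Figure D2:**
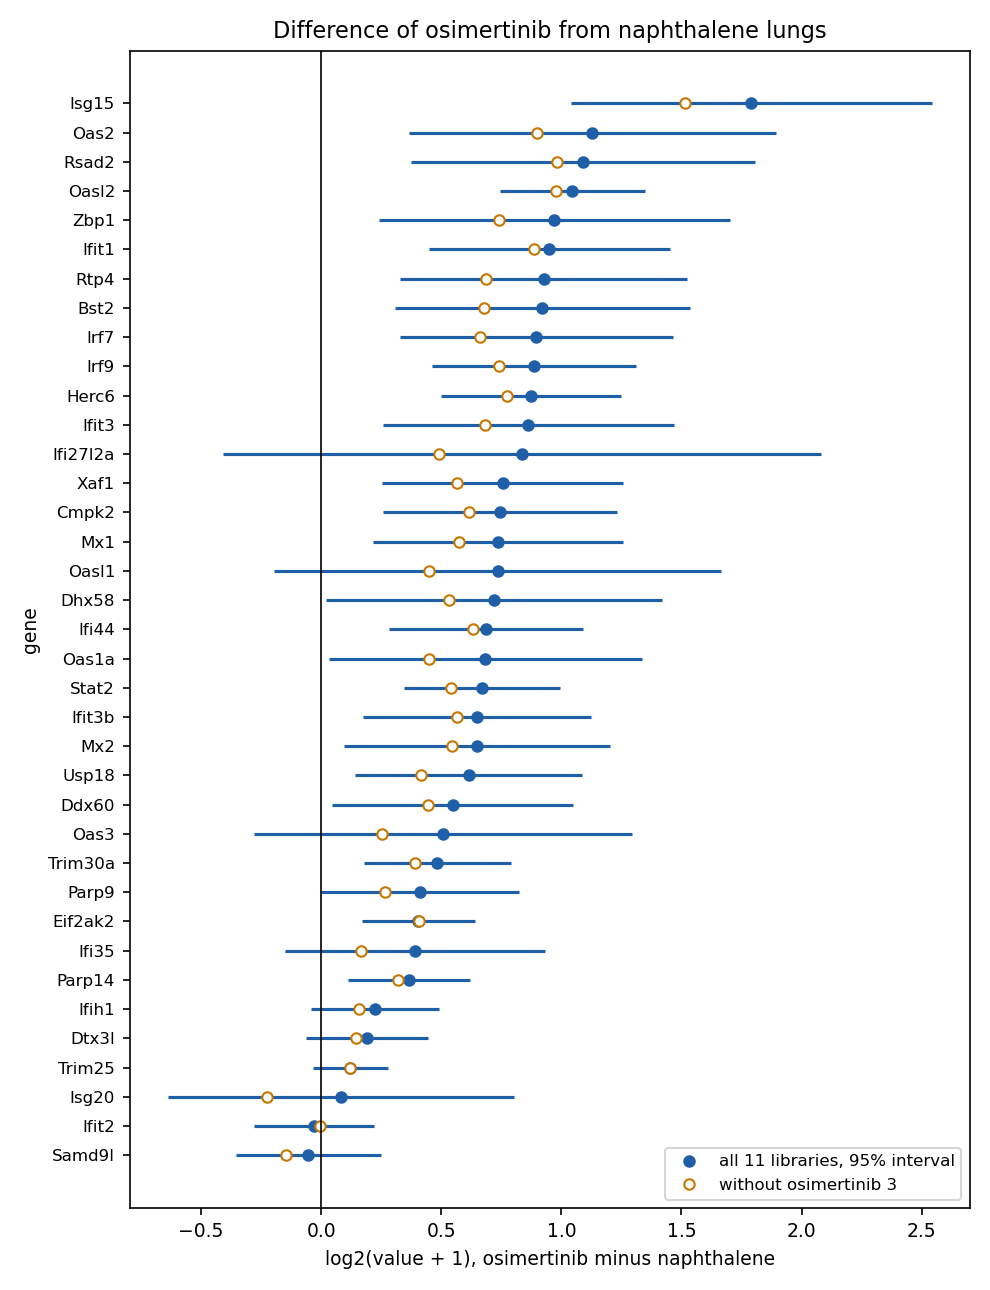
Difference of osimertinib from naphthalene on the log2(value + 1) scale for each gene, with filled circles and 95% intervals from the fit on all 11 libraries and open circles from the fit without osimertinib 3. Filled circles lie above 0 for 35 of 37 genes, and Ifit2 and Samd9l lie just below it.

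The 3 factors had a median difference between osimertinib and naphthalene of 0.89. All 3 had groups that did not overlap, with osimertinib higher, against 3.82% of all genes. Stat2, the STAT protein particular to interferon signalling, was at 36.4, 33.6 and 34.0 in control 1 to 3, 28.1, 28.5 and 27.5 in naphthalene 1 to 3 and 39.3, 46.3, 65.3, 39.6 and 40.1 in osimertinib 1 to 5. Every osimertinib library was above every control and every naphthalene library, and every naphthalene library was below every control. The difference from naphthalene was 0.67 (95% interval 0.35 to 0.99, limma adjusted p = 0.188). Irf9, the DNA-binding partner of STAT2, was at 34.3, 29.8 and 29.2 in control, 18.6, 20.6 and 30.3 in naphthalene and 35.4, 39.4, 64.9, 38.9 and 40.4 in osimertinib libraries. Again the osimertinib libraries stood above both other groups, while naphthalene 3 lay among the controls. Its difference from naphthalene was 0.89 (95% interval 0.46 to 1.31, limma adjusted p = 0.188). Irf7, which carries the response into further interferon production, was at 15.1, 12.7 and 11.8 in control, 13.3, 10.3 and 14.2 in naphthalene and 16.6, 23.0, 46.9, 21.2 and 21.1 in osimertinib libraries. Control and naphthalene overlapped, and the lowest osimertinib library was above both. Its difference was 0.90 (95% interval 0.33 to 1.46, limma adjusted p = 0.270), and 0.66 without osimertinib 3, the library that was the highest for all 3 factors.

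Of the 5 genes of ubiquitin and ISG15 conjugation, 4 had an unadjusted limma p under 0.05 against naphthalene and were higher, against 7.08% of all genes. Isg15 was at 3.81, 3.34 and 4.34 in control, 1.58, 1.19 and 3.67 in naphthalene and 6.26, 8.47, 21.1, 7.98 and 7.46 in osimertinib libraries. All 5 osimertinib libraries were above all 6 others, and the 3 naphthalene values rested on 5, 3 and 8 reads. The ratio of group means was 4.78, and it was the largest of the 37. Usp18, the protease that removes ISG15 and dampens the receptor, was at 11.3, 9.30 and 9.36 in control, 8.84, 9.89 and 9.64 in naphthalene and 12.6, 12.4, 26.6, 13.3 and 13.5 in osimertinib libraries. Control and naphthalene overlapped and the osimertinib libraries lay above both, with osimertinib 3 far above the other 4; the difference from naphthalene was 0.61 (95% interval 0.14 to 1.09, limma adjusted p = 0.350). Herc6, the ligase that attaches ISG15 in mice, was at 21.7, 20.2 and 21.1 in control, 17.0, 16.2 and 12.4 in naphthalene and 22.0, 34.1, 38.2, 25.2 and 25.9 in osimertinib libraries. The 3 groups did not overlap, with naphthalene lowest and osimertinib highest, and osimertinib differed from naphthalene by 0.87 (95% interval 0.50 to 1.25, limma adjusted p = 0.178). Trim30a, a ligase of the TRIM family, was at 35.7, 32.3 and 28.5 in control, 31.6, 28.5 and 28.5 in naphthalene and 34.1, 46.3, 54.0, 38.0 and 38.4 in osimertinib libraries. Its osimertinib libraries were above every naphthalene library, while osimertinib 1 lay within the controls. Trim25, a ligase that activates the RNA sensor RIG-I, had group means of 72.1 ± 2.03 in control, 71.6 ± 2.85 in naphthalene and 77.9 ± 2.52 in osimertinib lungs (± SD, n = 3, 3 and 5). Herc6 shares 12% and Trim30a 5.98% of their 50-base words with 1 other annotated gene each, so reads may have been split between copies.

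**Figure D3:**
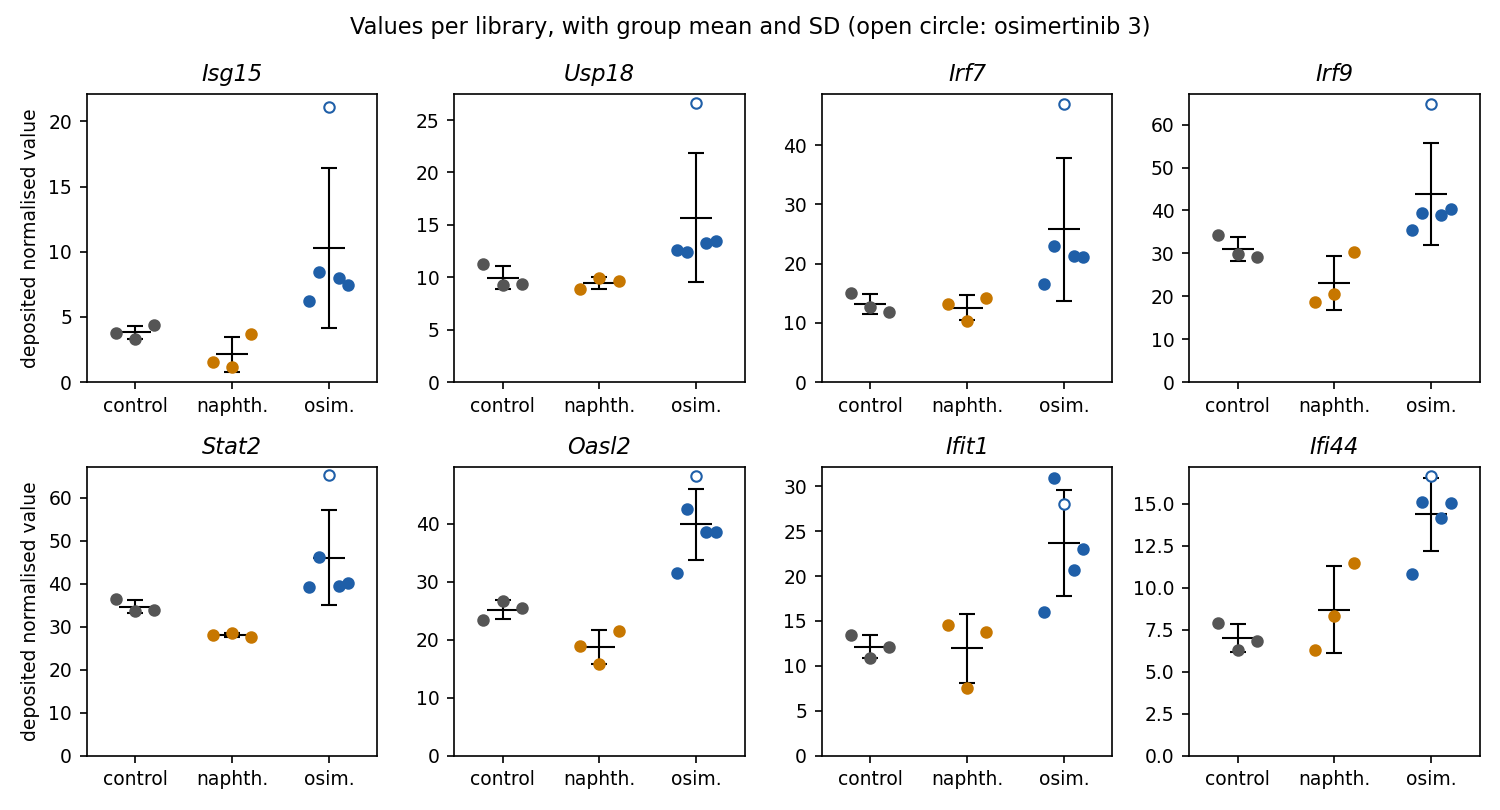
Deposited normalised values of 8 genes in each library, with the group mean and SD (n = 3, 3 and 5); every vertical axis starts at 0 and osimertinib 3 is the open circle. For these 8 genes the osimertinib libraries lie above the control libraries, and for Ifi44 osimertinib 1 lies below naphthalene 3.

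The 17 effectors had a median difference from naphthalene of 0.73. Of them, 12 had an unadjusted limma p under 0.05 and were higher, against 7.08% of all genes. Oasl2 was at 23.4, 26.7 and 25.5 in control, 18.9, 15.8 and 21.6 in naphthalene and 31.5, 42.6, 48.2, 38.6 and 38.6 in osimertinib libraries. The 3 groups did not overlap, and the lowest osimertinib value stood above the highest control value. Ifit1, which binds RNA that lacks the host's cap marks, was at 13.4, 10.9 and 12.1 in control, 14.5, 7.52 and 13.8 in naphthalene and 16.0, 31.0, 28.0, 20.7 and 23.0 in osimertinib libraries. Osimertinib 2, not 3, was its highest library, and all 5 were above the other groups. Its difference was 0.95 (95% interval 0.45 to 1.45, limma adjusted p = 0.204). Eif2ak2, the kinase PKR that halts translation on double-stranded RNA, was at 24.8, 25.9 and 22.7 in control, 22.7, 20.2 and 23.4 in naphthalene and 26.3, 34.9, 29.5, 28.6 and 29.0 in osimertinib libraries. The osimertinib libraries lay above both other groups, and its difference of 0.40 (95% interval 0.17 to 0.64, limma adjusted p = 0.233) was 0.41 without osimertinib 3. Cmpk2, a mitochondrial nucleotide kinase that lies beside Rsad2 on chromosome 12, was at 17.5, 15.9 and 16.8 in control, 14.5, 10.7 and 18.4 in naphthalene and 22.6, 29.6, 35.6, 22.4 and 16.3 in osimertinib libraries. Osimertinib 5 lay within the naphthalene range for Cmpk2. Rsad2, where osimertinib 1 and 5 both did, had group means of 6.47 ± 1.08 in control, 4.71 ± 2.34 in naphthalene and 11.3 ± 4.70 in osimertinib lungs (± SD, n = 3, 3 and 5).

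The Ifit genes of chromosome 19 did not share 1 pattern. Ifit2 was at 21.3, 24.5 and 21.0 in control, 20.8, 21.4 and 28.0 in naphthalene and 22.6, 24.4, 21.1, 23.1 and 22.3 in osimertinib libraries, so its groups overlapped. Its difference from naphthalene was -0.031 (95% interval -0.28 to 0.22, limma adjusted p = 0.948), and osimertinib 3, the highest library for most of the 37 genes, was its lowest of the 5. Ifit3 was at 28.5, 25.3 and 22.5 in control, 24.6, 16.6 and 38.1 in naphthalene and 31.3, 49.8, 77.0, 46.2 and 38.3 in osimertinib libraries, with osimertinib 3 highest and naphthalene 3 above osimertinib 1. Ifit3b, its near copy, was at 8.92, 8.51 and 7.29 in control, 6.00, 7.12 and 10.6 in naphthalene and 8.55, 16.1, 16.2, 12.2 and 11.7 in osimertinib libraries, and there osimertinib 2 and 3 were level. Ifit3 and Ifit3b share 51.2% and 44.5% of their 50-base words with each other, so how reads were divided between them is uncertain. Whether Ifit2 differed from its neighbours in its response was not tested.

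**Figure D4:**
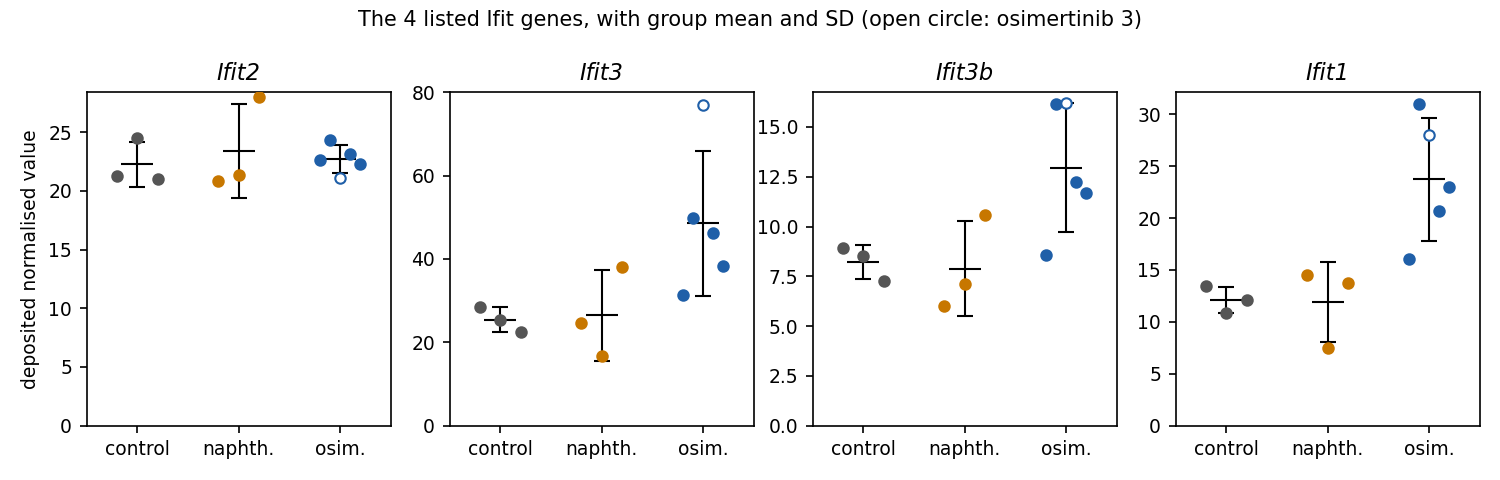
Deposited normalised values of Ifit2, Ifit3, Ifit3b and Ifit1 in each library, with group mean and SD (n = 3, 3 and 5), axes from 0 and osimertinib 3 as the open circle. Ifit2 spans 20.8 to 28.0 over all 11 libraries, while the other 3 have their highest values in osimertinib 2 or 3.

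The other effectors are given by group means (± SD, n = 3, 3 and 5). Among the synthetases whose product activates RNase L, Oas2 had means of 4.46 ± 0.618, 4.09 ± 0.831 and 11.2 ± 5.85 in control, naphthalene and osimertinib lungs. Oas1a had 4.18 ± 0.769, 4.76 ± 0.648 and 8.96 ± 4.66, and it shares 57.6% of its 50-base words with Oas1g, so its reads are uncertain. Oas3 and Oasl1 had unadjusted limma p values of 0.186 and 0.111 against naphthalene. Osimertinib 1 was the exception in Oas2: it held 4.05, just under the lowest control (4.08), while the other 4 held 8.33 to 19.9. Mx1 and Mx2, the antiviral GTPases, rested on few reads, with osimertinib means of 3.67 ± 1.49 and 3.46 ± 1.31 against 1.72 ± 0.434 and 1.79 ± 0.561 in naphthalene lungs. Bst2, the membrane protein tetherin, had 23.2 ± 1.73, 17.2 ± 5.57 and 34.8 ± 16.9, and its osimertinib mean was 27.3 ± 3.13 without osimertinib 3. Isg20, an RNA exonuclease, and Samd9l, a translation inhibitor, had differences from naphthalene of 0.082 (95% interval -0.64 to 0.80, limma adjusted p = 0.951) and -0.054 (95% interval -0.35 to 0.25, limma adjusted p = 0.919). Isg20 was at 36.0 in osimertinib 3 and at 9.62 to 14.7 in the other 4 osimertinib libraries.

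The 4 sensors of foreign nucleic acid had a median difference from naphthalene of 0.63. Zbp1, a sensor of left-handed nucleic acid, led them with 0.97 (95% interval 0.24 to 1.70, limma adjusted p = 0.341), from group means of 4.06 ± 2.24 to 8.91 ± 4.45. Dhx58, which encodes the RIG-I relative LGP2, and Ddx60 had osimertinib means of 7.81 ± 3.07 and 16.3 ± 3.14 against 4.65 ± 3.14 and 11.3 ± 4.41. Ifih1, which encodes MDA5, was already at 42.7 ± 1.10 in control lungs and differed least, by 0.22 (95% interval -0.044 to 0.49, limma adjusted p = 0.572). The genes of ADP-ribosylation lie side by side on chromosome 16 in the order Parp14, Dtx3l and Parp9. Parp14 was at 94.2 ± 9.96 in naphthalene and 122 ± 16.0 in osimertinib lungs with groups that did not overlap, and Parp9 at 27.2 ± 5.23 and 37.1 ± 10.4. Dtx3l, the ligase that pairs with PARP9, was at 38.5 ± 2.88 and 44.5 ± 6.65, and its groups overlapped.

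Of the 5 remaining genes, Ifi44 was at 7.90, 6.29 and 6.82 in control, 6.31, 8.31 and 11.5 in naphthalene and 10.8, 15.1, 16.7, 14.2 and 15.1 in osimertinib libraries. Its osimertinib libraries were above every control, and osimertinib 1 was below naphthalene 3. Rtp4, a chaperone of membrane receptors, was at 14.3, 13.9 and 13.1 in control, 9.16, 11.1 and 16.5 in naphthalene and 18.0, 19.9, 46.8, 19.7 and 21.7 in osimertinib libraries, with the osimertinib libraries above both other groups. Rtp4 shares 11.6% of its 50-base words with another annotated gene. Xaf1, which promotes cell death, had means of 12.1 ± 1.77 in control, 10.1 ± 1.39 in naphthalene and 18.5 ± 7.01 in osimertinib lungs. Ifi27l2a was the most uneven gene: it ranged from 11.96 to 31.1 in control, 10.7 to 38.5 in naphthalene and 15.3 to 107 in osimertinib libraries. Its groups overlapped, and its difference from naphthalene had the widest interval of the 37 (0.84, 95% interval -0.41 to 2.08, limma adjusted p = 0.659). Ifi35 had means of 18.2 ± 2.05 and 25.7 ± 11.7, and 20.6 ± 3.26 in osimertinib lungs without osimertinib 3.

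Osimertinib lungs were also set against untreated lungs, a comparison that shares the osimertinib libraries with the comparison against naphthalene and is no independent repeat of it. All 37 differences were above 0, with a median of 0.47, against -0.01 over all genes, 48.0% of which were above 0. The largest were those of Ifi27l2a (1.12, 95% interval -0.12 to 2.37, limma adjusted p = 0.999), Isg15 (1.10, 95% interval 0.35 to 1.85, limma adjusted p = 0.672) and Oas2 (1.02, 95% interval 0.26 to 1.79, limma adjusted p = 0.761). Ifi44 (0.93, 95% interval 0.53 to 1.34, limma adjusted p = 0.313), Ifit1 (0.88, 95% interval 0.38 to 1.39, limma adjusted p = 0.541) and Oasl2 (0.63, 95% interval 0.33 to 0.93, limma adjusted p = 0.330) had the smallest unadjusted p values of the 37. None passed the adjusted threshold in limma or edgeR, where 0.00616% of all genes did by either tool. DESeq2 called those 3 genes, Ifi44 at an adjusted p of 0.000108, Oasl2 at 0.00449 and Ifit1 at 0.0149, where it called 0.465% of all genes. An unadjusted limma p under 0.05 with a higher level was found for 19 of 37, against 2.31% of all genes, and for 9 without control 3, against 1.44%.

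All 5 osimertinib libraries were above all 3 controls for 15 of the 37 genes, against 2.91% of all genes. Without osimertinib 3 this held again for 15, against 4.6% of all genes, and the median difference was 0.30, with 35 of 37 above 0. Among the 7 libraries without the large unnamed gene, osimertinib 1, 3, 4 and 5 were above all controls for 16 genes, against 3.91% of all genes. Stat2, Irf9, Irf7, Isg15, Usp18, Herc6, Oasl2, Ifit1, Ifit3, Eif2ak2, Ifi44, Rtp4, Ifih1, Parp14 and Trim25 are the 15. For Trim25 the 3 control values were 70.2 to 74.3 and the 5 osimertinib values 76.0 to 82.0, a gap of small size, with a log2 difference of 0.11 (95% interval -0.045 to 0.27, limma adjusted p = 0.999).

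On the log2(value + 1) scale 30 of the 37 genes had a naphthalene minus control difference below 0, and the numbers of single genes that stood out were near or under those of all genes. The median difference was -0.12, with 7 of 37 above 0, against -0.06 over all genes, 38.0% of which were above 0. No listed gene passed the adjusted threshold in limma or edgeR, where 0.0% of all genes did. DESeq2 called none of the 12 listed genes to which it gave an adjusted p, and 0.227% of all genes with one. An unadjusted limma p under 0.05 with a lower level was found for 2, against 5.74% of all genes: Oasl2 (-0.41, 95% interval -0.75 to -0.078, limma adjusted p = 0.611) and Herc6 (-0.45, 95% interval -0.87 to -0.031, limma adjusted p = 0.639). No listed gene was higher by that measure, against 1.73% of all genes. All naphthalene libraries were below all controls for 4 genes (Oasl2, Herc6, Stat2 and Mx1), against 11.2% of all genes, and above them for 1 (Samd9l), against 4.94%. These values turned on single libraries. Without naphthalene 3, 17 genes were below all controls, against 26.4% of all genes, and the median was -0.23 with 3 of 37 above 0. Without control 2 or control 3 the genes below all controls were 8 and 7, against 14.0% and 14.3% of all genes. Without naphthalene 2 the median was -0.035, against -0.051 over all genes, with 16 of 37 above 0, and without control 1 it was -0.043, against -0.062, with 14 above 0. In edgeR and DESeq2 the medians were -0.068 and -0.061, with 14 of 37 above 0 in each. Because all 3 naphthalene libraries and no control held the large unnamed gene, this read share and naphthalene cannot be told apart.

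**Figure D5:**
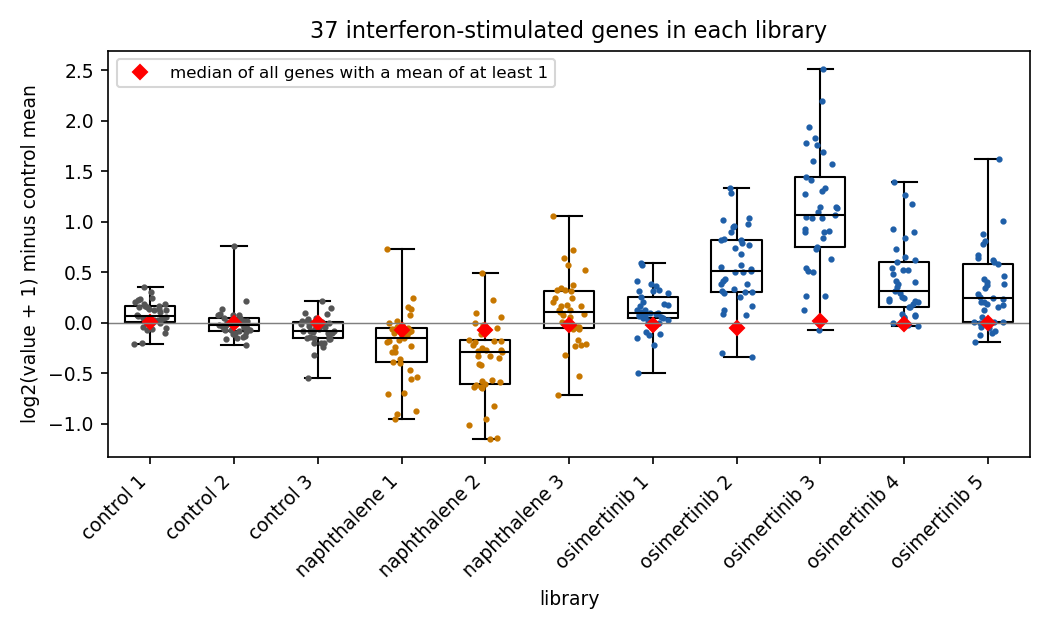
Log2(value + 1) minus the control mean for each of the 37 genes (points) in each library, with boxes for the quartiles, a line for the median and whiskers to the extremes; red diamonds mark the median of all 16225 genes. The medians of the 37 genes are -0.29 to 0.11 in naphthalene and 0.10 to 1.07 in osimertinib libraries, while the diamonds stay between -0.08 and 0.02.

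The 5 osimertinib libraries did not hold these genes at 1 level. The median difference of the 37 genes from the control mean was 0.10 in osimertinib 1, 0.52 in osimertinib 2, 1.07 in osimertinib 3, 0.32 in osimertinib 4 and 0.24 in osimertinib 5. Osimertinib 1 was above every control for 19 of the 37 genes (against 22.0% of all genes), osimertinib 2 for 31 (27.7%), osimertinib 3 for 36 (42.8%), osimertinib 4 for 31 (25.6%) and osimertinib 5 for 24 (30.0%). In naphthalene libraries the medians were -0.15, -0.29 and 0.11, so naphthalene 3 was level with osimertinib 1. The lowest value of a gene over all libraries lay in a naphthalene library for 33 of the 37. This count was not taken over all genes, so it cannot show whether the listed genes differ from others. The naphthalene libraries also held the fewest reads, and the part of read number in this count was not tested. The SD of library medians within groups, pooled over the 3 groups, was 0.29.

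The genes varied together from library to library within groups. Over the 666 pairs of listed genes the median Pearson r of deviations from the group means was 0.65 over 11 libraries, with 640 pairs above 0, and 0.49 with 562 above 0 without osimertinib 3. Points share the library, so these are descriptions and carry no p. No such median was taken over other genes. The r values that follow were taken with the differences between groups left in. Irf7 followed the mean of the other listed genes most closely (r = 0.97 over 11 libraries), then Parp9 (0.97) and Ifit3 (0.97), and Ifit2 least (0.06), with Samd9l (0.57) and Isg20 (0.62) next. Of 11661 genes with a mean of at least 5, Rnf213 and Phf11d outside the list had the pattern most like the mean of the 37 (r = 0.99 and 0.98, and 0.97 and 0.94 without osimertinib 3). Rnf213, a large ubiquitin ligase, was at 282 ± 11.8, 271 ± 24.9 and 374 ± 66.3 in control, naphthalene and osimertinib lungs, and Phf11d at 18.0 ± 1.74, 18.0 ± 5.98 and 30.5 ± 12.1. The next 8 were Slco2b1, Hebp1, Ctsd, Adipor1, Fuca1, Ccl9, Fxyd6 and Ctnnb1, with r from 0.93 to 0.95.

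The genes upstream of the response had list medians of 0.16 (receptors and kinases) and 0.05 (nucleic acid sensing) between osimertinib and naphthalene, against 0.69 for the 37 genes. Of 9 receptors and kinases, 1 (Ifngr1) had an unadjusted limma p under 0.05 and was higher in osimertinib than in naphthalene lungs, against 7.08% of all genes. The receptor chains Ifnar1 and Ifnar2 had osimertinib minus naphthalene differences of 0.058 (95% interval -0.17 to 0.29, limma adjusted p = 0.886) and -0.038 (95% interval -0.25 to 0.18, limma adjusted p = 0.919), and the kinases Jak1 and Tyk2 of -0.075 (95% interval -0.30 to 0.15, limma adjusted p = 0.838) and 0.16 (95% interval -0.10 to 0.41, limma adjusted p = 0.697). Ifngr1, a chain of the interferon gamma receptor, had group means of 86.8 ± 2.50, 75.8 ± 8.69 and 102 ± 4.14 in control, naphthalene and osimertinib lungs and a difference of 0.43 (95% interval 0.24 to 0.61, limma adjusted p = 0.178). Next came Ifnlr1 and Il10rb, the chains of the interferon lambda receptor, with 0.32 (95% interval -0.0012 to 0.63, limma adjusted p = 0.487) and 0.22 (95% interval -0.06 to 0.50, limma adjusted p = 0.596). Of 17 genes of nucleic acid sensing upstream of interferon, 1 was higher by that measure, under the 7.08% of all genes, the adaptor Myd88 (0.34, 95% interval 0.075 to 0.61, limma adjusted p = 0.355). The factor Irf3 was at 34.3 ± 4.44, 26.0 ± 6.08 and 38.8 ± 15.4, the nuclease Trex1 differed by 0.57 (95% interval -0.045 to 1.19, limma adjusted p = 0.518) and the DNA sensor Cgas by 0.34 (95% interval -0.10 to 0.78, limma adjusted p = 0.605). Interferon genes themselves were faint: Ifnk, Ifnz and Ifng were the 3 ligands measured and none reached a mean of 1, and Ifng lay between 0 and 0.791 units. Ifnb1 and the interferon alpha genes were not analysed here.

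Other targets of interferon were examined from lists of pathway genes. Of 51 further interferon-stimulated genes, 44 were above 0 against naphthalene with a median of 0.25, where 60.5% of all genes were above 0. At an unadjusted limma p under 0.05, 18 were higher and 2 lower, against 7.08% and 3.22% of all genes. After adjustment 0 passed, and 0.0% of all genes did. Gbp3, a guanylate-binding protein (0.65, 95% interval 0.37 to 0.94, limma adjusted p = 0.178), Gm4951 (1.22, 95% interval 0.64 to 1.80, limma adjusted p = 0.188), the PYHIN-family gene Ifi211 (1.10, 95% interval 0.54 to 1.66, limma adjusted p = 0.191) and Nlrc5, the activator of MHC class I genes (0.71, 95% interval 0.34 to 1.08, limma adjusted p = 0.204), had the smallest p values. The 11 interferon gamma targets that reached a mean of 1 had a median of 0.35. Of them, 3 were higher at an unadjusted limma p under 0.05, against 7.08% of all genes. They were Tap1, Psmb9 and Gbp2, at 0.35 (95% interval 0.13 to 0.58, limma adjusted p = 0.270), 0.73 (95% interval 0.15 to 1.31, limma adjusted p = 0.364) and 0.48 (95% interval 0.089 to 0.86, limma adjusted p = 0.376). Psmb8, a subunit of the immunoproteasome, followed with 0.60 (95% interval -0.16 to 1.36, limma adjusted p = 0.597), and the factor Irf1 was at 0.15 (95% interval -0.11 to 0.41, limma adjusted p = 0.712). Against untreated lungs the same 11 had a median of -0.06 with 4 above 0, while the 37 listed genes had 37 above 0, and the difference between these lists was not tested. Cxcl10, a chemokine, did not reach a mean of 1, and its highest value was 3.18, in osimertinib 2. Of 8 brakes on the pathway, Trim21 was higher (0.48, 95% interval 0.23 to 0.72, limma adjusted p = 0.191) and Pias1 lower (-0.22, 95% interval -0.42 to -0.015, limma adjusted p = 0.448) at an unadjusted limma p under 0.05. Among all genes 7.08% were higher and 3.22% lower by that measure. Socs3 and Socs1 differed by 0.38 (95% interval -0.078 to 0.83, limma adjusted p = 0.575) and 0.50 (95% interval -0.16 to 1.17, limma adjusted p = 0.606). Tlr3 and Socs1 stand in 2 of these lists.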

How the data were processed

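Per the labels' protocols, ribosomal RNA was removed from total lung RNA and 11 directional libraries were made. What the authors deposited is a normalised signal that, judged by its values, is CPM of the library size times a factor. Bowtie2, RSEM (1.3.0), Trimmomatic (0.38), edgeR and the build GRCm39 appear in the submitters' processing notes, with no role given. All values (100%) were whole multiples of 1 read within 0.01, which gave the reads for count tests and the depth.

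Symbols and exon lengths came from GENCODE M21 (GRCm38), an earlier build than the files'; it named 23123 of 23255 IDs. The main test was limma 3.58.1 in R 4.3.3 on log2(value + 1) of the 16225 genes with a mean of at least 1, fitting all 3 groups at once with a trend of variance on level, and adjusting over those genes by Benjamini-Hochberg at 0.05. This scale understates the change of low genes. The fit was tested on simulated data. Count tests used edgeR 4.0.16 (quasi-likelihood) and DESeq2 1.42.0.

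The genes and lists were chosen with earlier results of these data known. Full values were given for the 12 listed genes with a mean of at least 5 and the smallest p between osimertinib and naphthalene, for Irf7, Irf9, Stat2, Isg15 and Usp18, and for genes called by any tool; Ifit2, Ifit3, Ifit3b and the other single values were chosen after seeing them. Pathway genes named are the 4 with the smallest p of each list and a fixed set, of which 1 gene is not reported here and was left out of the lists. Deviations from the group means correlated between same-numbered naphthalene and osimertinib libraries (r = 0.12, 0.16 and 0.52), so the number was also fitted as a block. Differently numbered pairs reached 0.27 (naphthalene 2 with osimertinib 4), and controls correlated with their own numbers at -0.15 to 0.20, so the pairing is a hint from the data. Alternatives covered scaling, filter, pseudocount, weights, the block and leaving out libraries.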

Additional observations from a re-analysis of the deposited data

Results flagged for a closer look

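Within the 5 osimertinib libraries, 11 of the 37 genes had 1 library far from the other 4, and in all 11 it was osimertinib 3 and the value was high. The 3 factors were among them, with Stat2 at 65.3, Irf9 at 64.9 and Irf7 at 46.9 in that library. The ISG15 genes Isg15 and Usp18 were at 21.1 and 26.6 there, and the effectors Bst2 and Isg20 at 64.7 and 36.0. The sensors Ddx60 and Dhx58 were at 21.8 and 13.2, and Rtp4 and Ifi35 at 46.8 and 45.9. Each was judged by the gap to the next library as a share of the group's range, with a limit of 0.71, and chance gives such a gap in about 1 of 20 groups. The 11 values come from 1 library and are not independent of each other. This gap was not looked for over all genes, so the count cannot show whether the listed genes differ from others. That library was the highest of all for 30.6% of all genes, and for the macrophage, classical monocyte and alveolar type 2 cell marker sums.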

How the results depend on the processing

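Scaling had the largest effect on the number of genes called. With every library at the same total, all 37 genes were called lower in naphthalene than in control (median -1.56, against -1.46 over all genes) and all 37 higher in osimertinib than in naphthalene (median 1.66, against 1.11); osimertinib minus control had a median of 0.11 (all genes -0.34), with 26 of 37 above 0 and Eif2ak2 at -0.097. With the same total outside the genes that take over 10% of a library, 4 were called for naphthalene against control (median -0.53, all genes -0.44) and 23 for osimertinib against naphthalene (median 0.93, all genes 0.32). Under these scalings 88.7% and 30.8% of all genes, in that order, were higher in osimertinib than in naphthalene at an unadjusted limma p under 0.05. Array weights called 2 genes against naphthalene (Isg15 and Oasl2) and 7 against control, and DESeq2 called 2 and 3. With the weights 7.86% and 5.74% of all genes were higher by the unadjusted measure. For the scalings, the weights and the left-out libraries, the share of all genes called after adjustment is not given here. Those counts therefore cannot show whether the listed genes differ from others. Leaving out osimertinib 2 and 3 together called 2 against naphthalene (Oasl2 and Stat2). Leaving out 1 library gave 0 to 1, the 1 being Oasl2 without osimertinib 1, 2 or 3. The replicate block called 0 genes in each comparison, with medians of 0.81 against naphthalene and 0.57 against control, and changed no call. A term for the unnamed gene's share, which rests on osimertinib 2 alone, called 0 and gave a median of 0.73 against naphthalene, with Usp18 at 0.36; 4 genes changed sign, Isg20 (-0.30) and Ifi35 (-0.13) to below 0 and Ifit2 (0.068) and Samd9l (0.12) to above it. For the 13 genes with full values, 31 results were followed over 25 settings, which is not every comparison of every gene. Of these alternatives 721 kept direction and side of the threshold, 53 passed it in the same direction, and 1 reversed. Signs between naphthalene and control could also change. Ifit1 was at -0.066 in the main fit, 0.036 in edgeR and 0.042 in DESeq2. With the term for the unnamed gene's share, Irf7 went from -0.067 to 0.010 and Usp18 from -0.066 to 0.25. Causes of these shifts were not tested. Reads were fewest in naphthalene libraries, so faint genes such as Isg15, Mx1 and Mx2 are least precise there.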
